A study of Homo sapiens with 12 samples.

Results

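The STAT5B peaks of KOPT-K1, a human T-ALL cell line, were described from the list called in this line against its own input. All autosomal intervals of the list were taken as members, which were 2405 of 2755, and the other 350 lay on other chromosomes or contigs. Over the 6 lines of the series, 23569 of 24844 listed peaks were autosomal. ChIP-Seq for STAT5B was done in KOPT-K1 and 3 more lines labelled as having high STAT5 activation (SUP-T13, HSB-2, DND-41), and in 2 lines with low activation (JURKAT, LOUCY). Each line had 1 ChIP library and 1 input library. All 6 are precursor T cell lines with the genotype given as WT in the labels. For KOPT-K1, however, the study's sequencing found an activating change in the SH2 domain of STAT5B. With 1 library per line, no value below has a replicate check, and intervals around shares (exact Clopper-Pearson, 95%) cover counting error only.

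STAT5A and STAT5B are transcription factors that are phosphorylated on tyrosine by JAK kinases once a cytokine receptor, such as the IL-7 receptor of thymocytes, is engaged. Phosphorylated STAT5 pairs through its SH2 domains and binds DNA at the GAS palindrome, TTCNNNGAA, in which any bases may stand in the middle. In T-ALL, a leukemia of immature T cells, mutations of the receptor, of the kinases, or of STAT5B itself can keep STAT5 active without cytokine. ChIP-Seq maps such binding by sequencing DNA fragments that an antibody pulls down. A peak is an interval where these fragments outnumber those of the input, and its summit is the position with the most of them.

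The sequences around the strongest summits with the palindrome carry the main finding on this list and are shown first, with the palindrome in capitals. They were read from GRCh38, plus strand, and reach 50 bp to either side of the summit, or are 29 bases centred on the palindrome where the window touches an untranslated region.
*CAMKMT* intron, chr2:44674589-44674689: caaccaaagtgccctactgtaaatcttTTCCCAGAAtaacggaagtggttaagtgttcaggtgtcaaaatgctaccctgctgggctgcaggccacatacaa
upstream of *ACTR3*, chr2:113876959-113877059: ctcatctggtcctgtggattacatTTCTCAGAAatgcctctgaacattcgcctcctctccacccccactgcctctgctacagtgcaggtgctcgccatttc
*CD8A* last exon, chr2:86785626-86785654: ctcagcatgaTTCTGAGAActctgcgggt
*UGP2* promoter, chr2:63856334-63856362: tgcttctcagTTCCAAGAAgtcattcggc
repeated sequence on chromosome 3, chr3:90510220-90510320: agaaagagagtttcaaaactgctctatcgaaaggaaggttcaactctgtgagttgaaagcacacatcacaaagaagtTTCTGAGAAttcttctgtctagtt
repeated sequence on chromosome 20, chr20:28531190-28531290: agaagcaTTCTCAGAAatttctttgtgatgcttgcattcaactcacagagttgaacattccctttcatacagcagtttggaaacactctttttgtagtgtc
The first 4 occur once in the genome and lie on chromosome 2. The last 2 are shown for contrast, because their central 31 bases occur 57 and 122 times in the reference. The palindrome was searched as TTCNNNGAA on both strands (the letters read the same on each) within 50 bp of a summit. It occurred in 4.07% of 137810 windows of the same size laid at every 20 kb of the autosomes and in 1.72% of 19110 windows centred on the canonical start site of a protein-coding gene. A match describes the letters and does not show that the factor binds them.

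The KOPT-K1 peaks were concentrated on 3 chromosomes. Chromosomes 8, 2, and 6 held 863, 848, and 492 peaks, respectively, together 91.6% of the autosomal list. A further 84 lay on chromosome 4, 29 each on chromosomes 1 and 7, 21 on chromosome 10, and 17 on chromosome 3. The remaining autosomes had little or nothing, with 9 of them holding 1 to 3 peaks and 5 holding 0. Density was highest on chromosome 8, at 5.95 peaks per Mb, followed by chromosome 2 at 3.50 and chromosome 6 at 2.88, against 0.116 on chromosome 1.

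**Figure D1:**
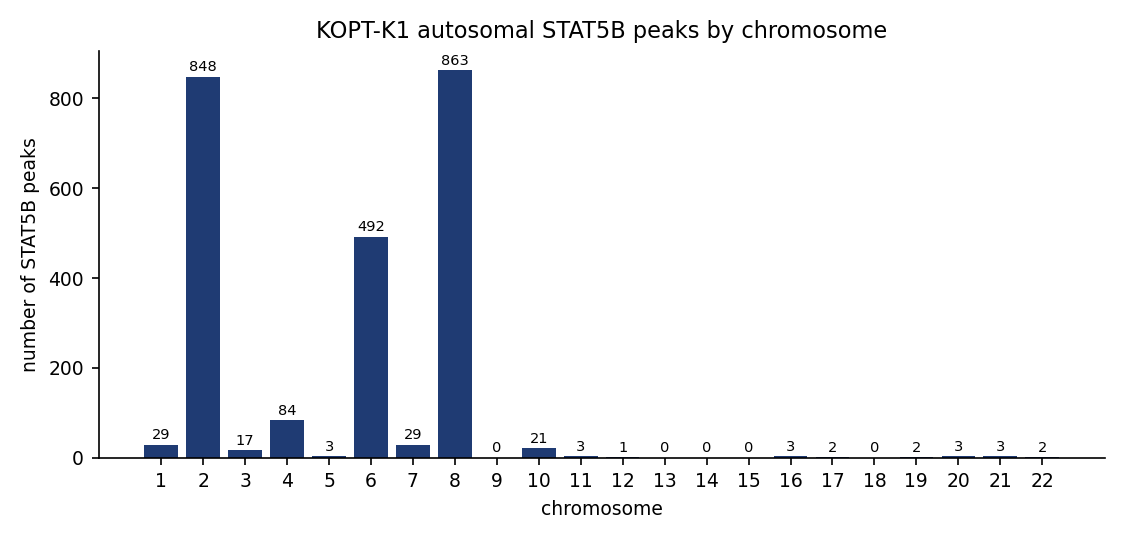
Number of KOPT-K1 STAT5B peaks (vertical axis) on each autosome (horizontal axis), with the count above each bar. Chromosomes 2, 6, and 8 stand out with 848, 492, and 863 peaks, while chromosomes 9, 13, 14, 15, and 18 have 0.

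Within these chromosomes the summits were packed into stretches. On chromosome 8 the central 90% of summits lay between 75.2 and 96.5 Mb, with a median gap of 19.6 kb from one summit to the next. On chromosome 6 the same share lay between 60.5 and 136 Mb, with a median gap of 34.7 kb. Chromosome 2 was covered more broadly, from 27.7 to 196 Mb, with a median gap of 36.8 kb. The densest single Mb were at 75 and 88 Mb of chromosome 8, with 55 summits each, and at 177 Mb of chromosome 2, with 52. Peaks were therefore dense only in parts of 3 chromosomes. Of 19111 autosomal protein-coding genes, 10552 lay on chromosomes with 3 or fewer peaks.

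This layout was not shared by the other lists. Chromosomes 6 and 8 held 20.5% and 35.9% of the KOPT-K1 peaks, whereas in the other 5 lists each of them held at most 1 peak. Chromosomes 1 and 2 together held 36.5% (34.5% to 38.4%) in KOPT-K1, 81.9% in JURKAT, and between 98.6% (HSB-2) and 99.3% (LOUCY) in the remaining 4. In KOPT-K1 nearly all of that share came from chromosome 2, which alone held 35.3%. Copy number, mappability, and read depth along these chromosomes were not tested as a source of the layout.

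The intervals were long for a transcription factor. The shortest was 3117 bp, although the library fragments were selected at 200 to 400 bp according to the labels, and the quartiles were 4087, 6116, and 11786 bp. Long intervals were not particular to KOPT-K1. The shortest intervals of the other lists were 1185 to 2671 bp, but the median was longer in LOUCY (10519.5 bp) and HSB-2 (7756 bp). The longest intervals reached 91.6 Mb (JURKAT). In KOPT-K1, 128 intervals exceeded 100 kb and 25 exceeded 1 Mb, the longest being 18.03 Mb. These longest 25 made up 68.2% of the 170 Mb covered by the list, and 24 of them were on chromosome 2. An interval has only 1 summit, so in a long interval the summit marks the strongest position of the whole stretch. Along chromosome 2 the form of the peaks changed with position. Between 40 and 60 Mb there were 4 summits, and their intervals covered 19.6 Mb, whereas between 180 and 200 Mb there were 174 summits with intervals covering 0.930 Mb.

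Most peaks were weak. The fold enrichment over input at the summit had quartiles of 1.96, 2.08, and 2.20, and 59 peaks reached 3 or more. The −log10 q, the peak caller's significance corrected for multiple testing, had a median of 2.15 and was under 5 in 95.4% of the peaks. Only 111 peaks reached a −log10 q of 5 and 57 reached 10. The fold values also came in steps. The 8 most frequent values were 0.0770 apart and accounted for 1150 peaks (47.8%), and 255 peaks shared the value 2.00. Summits lay within 400 bp of an end of their interval in 1010 peaks (42.0%), counted over weak and strong peaks together.

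**Figure D2:**
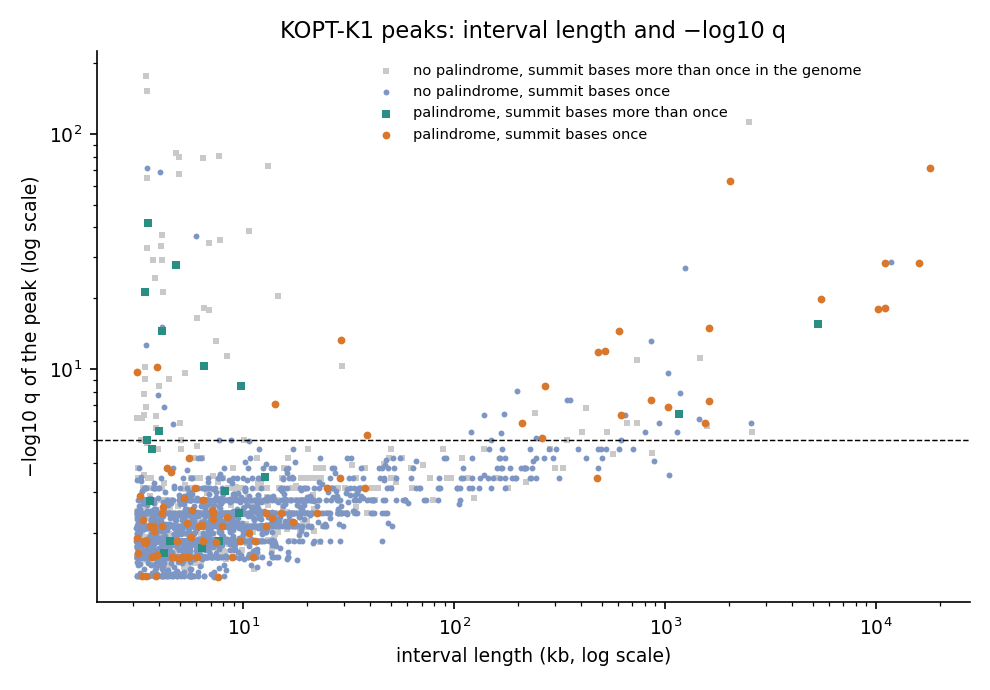
Each point is 1 of 2405 KOPT-K1 peaks, with interval length in kb (horizontal, log scale) against −log10 q (vertical, log scale), and the dashed line is at 5. Orange points, which have the palindrome and central bases occurring once in the genome, are frequent above the line at lengths over 100 kb, while grey squares, which are repeated sequence without the palindrome, are frequent above it at lengths near the minimum.

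The GAS palindrome was more frequent at the strong peaks than at the rest, although most strong peaks lacked it. Over all 2405 summits it was present in 104 (4.32%, 3.55% to 5.22%), no more often than in windows 1000 bp to either side (4.41%). Below a −log10 q of 5 it was present in 71 of 2294 (3.10%), and the flanks of these summits held it in 4.23%. At a −log10 q of 5 to 10 it was present in 14 of 54 (25.9%, 14.96% to 39.7%), and at 10 or more in 19 of 57 (33.3%, 21.4% to 47.1%). The flanks of these strong summits held it in 4.63% and 11.5%, respectively. Thus 33 of the 111 strong summits held the palindrome, and its other 71 occurrences lay at weak peaks, where it was slightly less frequent than in the flanks.

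Repeated sequence diluted the share among strong peaks. The split by copies was chosen after seeing the data, as were the splits by length and the comparison of single sites between lines below. The 31 bases centred on the summit occurred once in the reference at 1840 summits, 2 to 10 times at 172, and more than 10 times at 393. Among the strong peaks the single-copy summits numbered 51, and 24 of them held the palindrome (47.1%, 32.9% to 61.5%), against 2.94% (0.611% to 8.36%) of their flanks. At a −log10 q of 10 or more this was 13 of 21 (61.9%, 38.4% to 81.9%). At strong summits with more than 1 copy it was 9 of 60 (15%), close to the 12.6% of their flanks. Among the 1789 weak single-copy summits the share was 3.41%. The palindrome was thus frequent at summits that were both strong and unique in the genome.

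**Figure D3:**
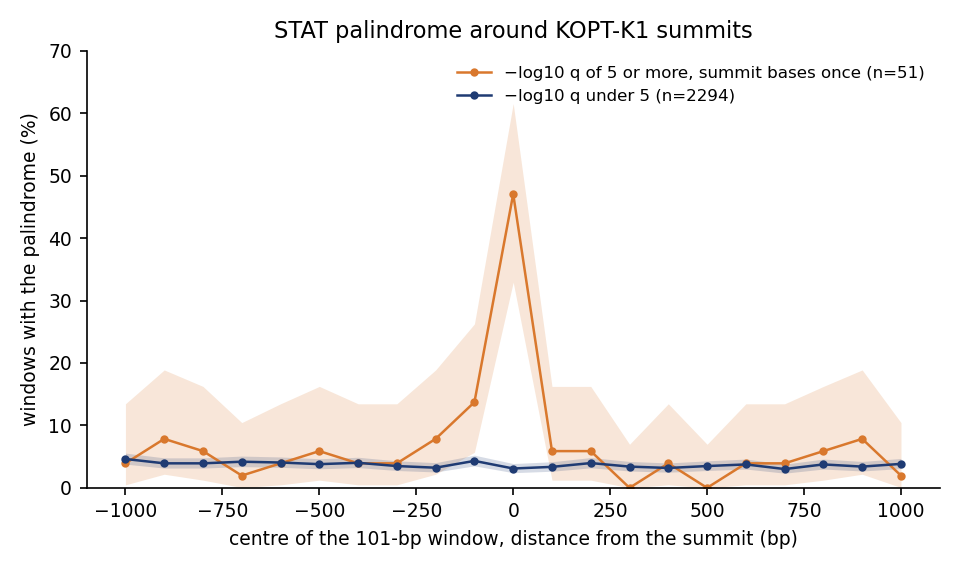
Share of windows of 50 bp to either side of their centre with the palindrome TTCNNNGAA (vertical axis, %) by distance of the window from the KOPT-K1 summit (horizontal axis, bp), with exact 95% intervals shaded. At the 51 strong single-copy summits (orange) the share reaches 47.1% at distance 0 and 13.7% in the neighbouring window at lower coordinates, while the 2294 weak summits (blue) stay between 3.01% and 4.62% throughout.

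Inside the window, the palindrome was no nearer the summit at strong peaks than at weak ones. Its centre lay a median of 20.5 bp from the summit in the 24 strong single-copy windows with a match and 21 bp in the 71 weak ones. The spelling differed more. In 22 of the 24 the window held one of the 4 spelled forms TTCTNAGAA, TTCTNGGAA, TTCCNAGAA, or TTCCNGGAA, counted on both strands and all contained in TTCNNNGAA. Of the 51 strong single-copy windows, 43.1% held such a form, against 0.980% of their flanks and 1.93% of the autosomal windows. Among the weak peaks with a palindrome, 25 of 71 held one. The spacing mattered as well. With 4 bases in the middle in place of 3, the palindrome was found in 2 of the 51 windows (3.92%), near the 2.94% of their flanks.

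Other short motifs of factors active in T cells, added after the palindrome result was seen, were rare at these summits. The RUNX motif TGTGGTT, the GATA motif AGATAAG, and the ETS motif CCGGAAGT, each searched on both strands, were found in 0 of the 51 windows, which allows a share of up to 6.98%. The AP-1 motif TGANTCA was found in 1 and the E-box CAGCTG in 0. The flanks of the 51 summits held each motif in at most 1.96% of windows, and only these spellings were searched. So few windows cannot show a small enrichment. Over all 2405 summits, AP-1 occurred in 1.79%, against 3.39% of the flanks, and RUNX in 1.62%, against 2.1%. None of these motifs came near the share of the palindrome at the 51 summits.

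The long intervals showed the same pattern as the strong ones, but the palindrome sites of both were largely the same. The palindrome was present at the summit in 4.10% of intervals of up to 5 kb, 3.35% of those from 5 to 20 kb, and 2.87% of those from 20 to 100 kb. It was present in 9 of 103 intervals from 100 kb to 1 Mb (8.74%) and in 13 of 25 intervals over 1 Mb (52.0%, 31.3% to 72.2%), against 2.00% of the flanks of the latter. The summit in an interval of several Mb was thus often a site with a GAS palindrome, although the interval itself said little about where the factor was. Of the 24 strong single-copy sites with the palindrome, 19 were the summit of an interval over 100 kb, where 22 of 128 summits held it. The split by length is thus not separate from the split by strength. Among the 13 strong single-copy summits in intervals of up to 100 kb, 5 held the palindrome (38.5%, 13.9% to 68.4%).

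These 24 sites were 7 promoters, 11 introns, 2 exons, and 4 distal positions, and 23 were on chromosome 2. Their fold enrichment ranged from 2.52 to 6.35, with a median of 3.40. The strongest summit (chr2:44674639, fold enrichment 6.35, −log10 q 71.8) was in intron 3 of *CAMKMT*, the gene of a calmodulin lysine methyltransferase, 1955 bp from an alternative start site. The next (chr2:113877009, fold enrichment 6.18, −log10 q 63.2) was 13054 bp upstream of *ACTR3*, which encodes a subunit of the actin-nucleating Arp2/3 complex. Both had the palindrome about 20 bp from the summit, with offsets of 19 and 22 bp.

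Among the other strong sites, the only one in a gene of the fixed gene lists given below was in *CD8A*. This gene encodes the alpha chain of the CD8 coreceptor, which brings the kinase LCK to the T cell receptor. The summit (chr2:86785638, fold enrichment 4.61, −log10 q 28.3) was in exon 6, the last exon of the canonical transcript, 3640 bp from the nearest start site and 2 bp from the centre of the palindrome. Its interval was 15.97 Mb long and also spanned the neighbouring *CD8B*. At *UGP2*, whose enzyme makes UDP-glucose, the summit (chr2:63856348, fold enrichment 4.10, −log10 q 28.1) was 28 bp from an alternative start site and on the centre of the palindrome. *PTPN4*, a protein tyrosine phosphatase gene, had a summit in intron 13 (fold enrichment 4.47, −log10 q 19.8). The strongest unique sites with the palindrome therefore lay in or near genes of varied function, with *CD8A* the only one from the fixed lists.

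The remaining intronic and exonic sites lay in *LONRF2* (exon 12, −log10 q 18.2), in intron 1 of *TMEM163* (14.9) and *RBMS1* (7.30), in 2 introns of the bicarbonate transporter gene *SLC4A10* (13.3 and 9.71), and in *UPP2* (11.98), *MYO3B* (8.47), the kinase gene *STK39* (7.41), *MYO7B* (6.88), the spastin gene *SPAST* (5.22), and *NEB* (5.09). The distal sites were 142157 bp from *THUMPD2*, 301764 bp from *RPRM*, and 1017561 bp from *ZNF33B* on chromosome 10, besides the one upstream of *ACTR3*. Like *PTPN4*, the genes of this paragraph were named after their values were seen. The last of the 3 distal sites, in the centromeric region of chromosome 10, was the only one outside chromosome 2. Without chromosome 2, the palindrome was present at 1 of 10 strong single-copy summits (10.0%, 0.253% to 44.5%), too few to give a share.

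Several of the same positions were summits in other lines with high pY-STAT5. Of the 24 sites, 4 had a DND-41 summit within 500 bp, 5 an HSB-2 summit, and 4 a SUP-T13 summit, and 10 sites had a summit of at least 1 of these lines. The other 14, among them those at *ACTR3*, *CD8A*, and *UGP2*, had no summit of another line within 500 bp. The 13 coinciding summits were 3 to 90 bp away, with a median of 24 bp. At *CAMKMT* the SUP-T13 summit was 3 bp away (fold enrichment 4.74, −log10 q 69.97), and in *PTPN4* the HSB-2 summit was 3 bp away (5.14 and 117) and the SUP-T13 summit 11 bp away (4.13 and 27.2). In *GAD1*, DND-41 and HSB-2 had summits 24 and 49 bp away, with fold enrichments of 5.43 and 3.88, above the 2.85 of KOPT-K1. Where lists shared a site, the positions thus agreed to within a fragment length.

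LOUCY and JURKAT had no summit within 500 bp of any of the 24 sites. This does not measure absence, because 23 and 22 of the sites, respectively, lay inside a LOUCY or JURKAT interval with its summit elsewhere, mostly intervals of 56.9 to 91.6 Mb. The same held for 18 sites in SUP-T13 and 15 in HSB-2. DND-41 resolved most of these regions, and 18 of the sites were outside every DND-41 interval, as were 4 for HSB-2 and 2 for SUP-T13. A site without a call in another line could therefore be read mainly for DND-41.

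**Figure D4:**
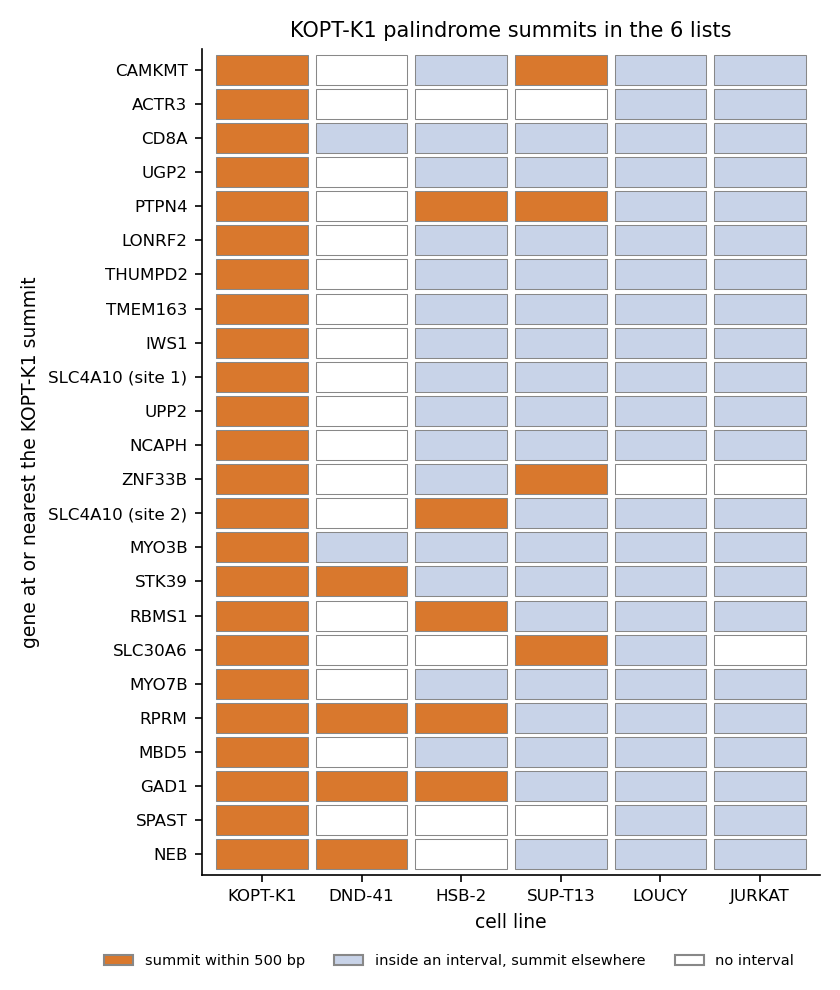
The 24 strong single-copy KOPT-K1 summits with the palindrome (rows, named by the gene at or nearest the summit, strongest first) in the lists of the 6 lines (columns). Orange marks a summit within 500 bp, blue an interval of that line with its summit elsewhere, and white no interval: 10 rows have orange in DND-41, HSB-2, or SUP-T13, and LOUCY and JURKAT have 0.

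The palindrome share at strong single-copy summits differed in level among the lines. It was 47.1% of 51 in KOPT-K1, and the other high lines had 35.6% of 149 (HSB-2), 34.96% of 555 (DND-41), and 17.3% of 168 (SUP-T13). It was 4.44% (1.22% to 10.99%) of 90 in LOUCY and 4.76% (1.31% to 11.7%) of 84 in JURKAT, where the flanks held 2.23% and 3.61%. The interval of KOPT-K1 overlapped those of DND-41 and HSB-2 and lay above those of the other 3 lines. KOPT-K1 ranked first with the single-copy filter, which was chosen after seeing the data, but not without it. Among all strong summits, KOPT-K1 had 29.7%, below DND-41 (34.4%) and HSB-2 (31.3%), with overlapping intervals. The shares of SUP-T13 (14.3%), JURKAT (7.69%), and LOUCY (3.91%) were lower. Over all summits, KOPT-K1 had 4.32%, against 10.3% (DND-41), 7.55% (HSB-2), 3.72% (SUP-T13), 3.18% (JURKAT), and 2.99% (LOUCY). The difference between the line groups was not tested.

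**Figure D5:**
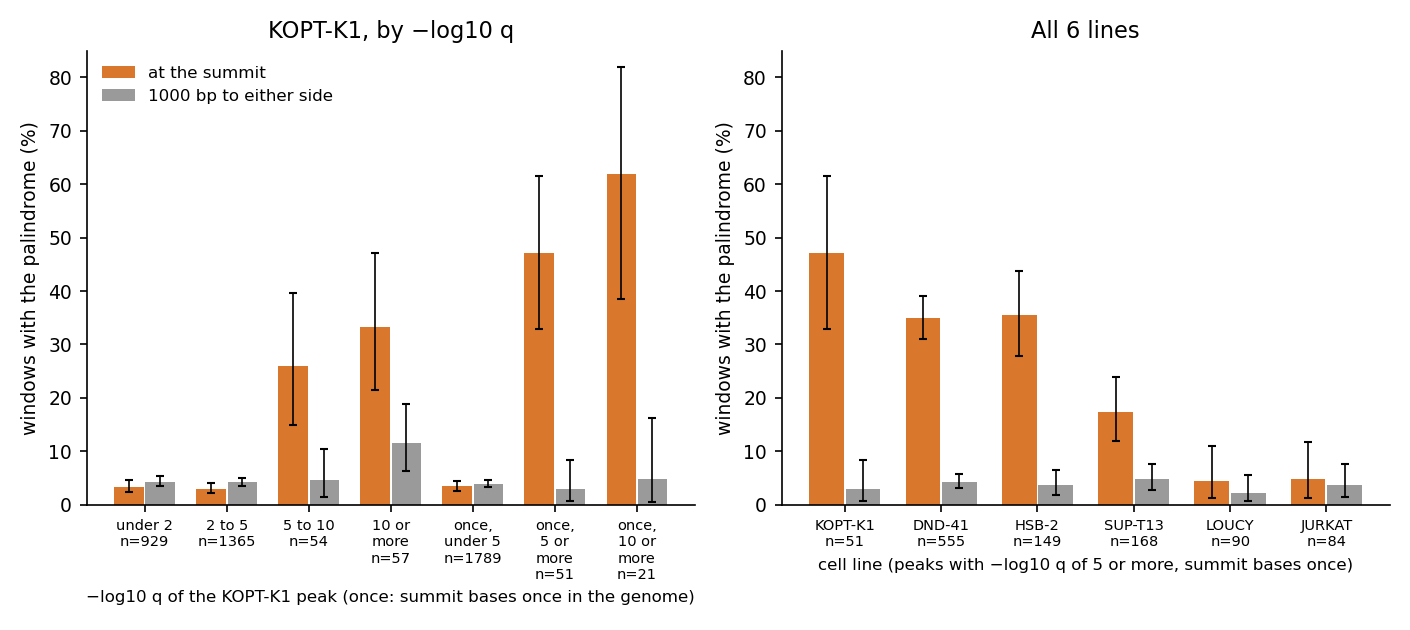
Share of windows of 50 bp to either side of their centre with the palindrome (vertical axes, %) at summits (orange) and 1000 bp to either side (grey), with exact 95% intervals and n summits below each pair. On the left KOPT-K1 peaks are split by −log10 q and by copies of the central 31 bases, with 3.34% under 2, 2.93% from 2 to 5, and 61.9% at 10 or more with single-copy summits. On the right the 6 lines are compared at strong single-copy summits, from 47.1% in KOPT-K1 to 4.44% in LOUCY.

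Promoters were a small part of the list. A summit lay within 2000 bp of the start site of a protein-coding gene in 108 peaks (4.49%, 3.70% to 5.40%), whereas such windows make up 7.77% of the sequenced autosomal bases and 6.19% when bases are weighted by the chromosomes of the peaks. These summits belonged to 95 of 19111 genes (0.497% of the genes tested), and 65 of the 95 were on chromosome 2. Of the 108, 38 were within 500 bp of a start site. Among the 111 strong peaks, promoters made up 12 (10.8%, 5.71% to 18.1%), in 13 genes. Most of the promoter genes were thus supported by weak peaks.

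Of the 108 promoter summits, 8 held the palindrome, in promoters of 10 genes. Besides *CAMKMT* and *UGP2*, these were *IWS1*, encoding a partner of the transcription elongation factor SPT6 (25 bp from a start site, −log10 q 14.4), and the condensin subunit gene *NCAPH* (274 bp, 11.8). The zinc transporter gene *SLC30A6* had its summit inside exon 1, at 0 bp from a start site (7.11). A shared promoter of *MBD5* and the replication origin gene *ORC4* held 1 summit (5.89), as did an alternative start site of *GAD1*, the gene of a glutamate decarboxylase (5.89). The shared promoter of *ATRAID* and the vitamin transporter gene *SLC5A6* was the only one of the 8 below a −log10 q of 5 (4.18). All of these promoters were on chromosome 2.

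The other promoters with the highest −log10 q lacked the palindrome. They were those of *TLK1*, a kinase of chromatin assembly (6.47), *FASTKD1* (6.38), *ZFP36L2*, encoding an RNA-binding protein that speeds mRNA decay (6.13), *BAZ2B* (4.98), and the nuclear receptor gene *NR4A2* (4.56). At *BAZ2B* the central 31 bases of the summit occurred 43 times in the genome. *RASA4* on chromosome 7 had 2 promoter summits (9.05 and 4.98), with 232 and 2 copies, and *TAF11L10* on chromosome 5 had 1 (6.37), with 6 copies. These last 2 genes are thus named with the limit that reads from other copies may have been placed there.

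Gene bodies outside promoters held 810 summits (33.7%, 31.8% to 35.6%), of which 774 were in introns and 36 in canonical exons. The corresponding bases make up 37.7% of the autosomes when weighted by chromosome. Together, 335 of 19111 genes (1.75%) had a summit in the promoter or body, and on chromosome 2 it was 175 of 1247 genes (14.03%). Over the whole list, intronic peaks were no more frequent than the bases available for them. Without chromosomes 6 and 8, gene bodies held 42.2% of summits, against 38.5% of all autosomal bases.

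The genes with the most summits lay in the dense stretches. Genes with 8 or more summits numbered 24, all on chromosomes 2, 6, and 8. *GRIK2*, a kainate receptor gene of 1119 kb on chromosome 6, had 53, with a median fold enrichment of 2.08 and a highest −log10 q of 4.98. Its density of 4.74 summits per 100 kb compared with 3.30 in the Mb to either side. *CNBD1* on chromosome 8 had 34 (4.54 per 100 kb, against 4.35 beside it) and *PDE11A* on chromosome 2 had 24 (4.95 against 4.45). None of these 3 genes had a strong peak, and in the last 2 the density was close to that of the surroundings.

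The other genes of this kind had weak peaks as well. *RALYL* had 23 summits, *EYS* 22, *CPQ* and *ZNF385B* 18 each, *PDE7B* 16, *MMP16* 15, and *HECW2* and *TTN* 13 each. *RAPGEF4* had 12, *RUNX1T1*, *OSBPL6*, and *ZFHX4* 11 each, *DNAH7* and *CHN1* 10 each, *AGPS*, *HNF4G*, *CNGB3*, and *B3GALT1* 9 each, and *ASCC3*, *CCDC141*, and *TRIQK* 8 each. In these 24 genes the highest −log10 q was 4.98. Because these genes were chosen for holding many summits, a density above that of the surroundings was favoured in advance. Some were denser than the Mb to either side, most of all the phosphodiesterase gene *PDE7B* (4.65 per 100 kb, against 1.05), and also *CPQ* (3.57 against 1.60), and *CHN1* (4.84 against 2.35). Others were less dense, such as *ASCC3* (2.14 against 3.95) and *RALYL* (3.11 against 3.70). *RUNX1T1*, the gene of a transcriptional corepressor, had the highest density (7.42 per 100 kb, against 4.30 beside it), with 4 of its 11 summits at start sites. *IL7*, which encodes the cytokine that signals to STAT5 in thymocytes and was looked at after its values were seen, had 7 weak summits (5.39 per 100 kb, against 4.35 beside it).

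Distal positions, outside promoters and gene bodies, held 1487 summits (61.8%, 59.9% to 63.8%), against 56.1% of the autosomal bases weighted by chromosome. Their median distance to a start site was 205725 bp, and 384 were over 500 kb from any. Over the whole list the median distance was 80251 bp. The list as a whole thus lay somewhat farther from genes than the bases of its chromosomes would give. Without chromosomes 6 and 8 this was not seen, as 50.6% of summits were distal, against 53.7% of all autosomal bases.

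The very strongest peaks were of this distal kind and were mostly repeated sequence. Of the 20 peaks with the highest −log10 q, 19 were distal, 11 were over 500 kb from any start site, and 15 had central bases that occur more than once in the genome. Only 3 of the 20 held the palindrome, and these were the sites at *CAMKMT* and *ACTR3* and a repeated one on chromosome 3. The top peak (chr2:43046891, fold enrichment 6.002, −log10 q 176) had 4 copies and was 179715 bp from *ZFP36L2*. The next was on chromosome 22, at 96624 bp from *FAM246B*, with 7 copies (9.67, −log10 q 151), and the one after it on chromosome 2, at 1300717 bp from *AQP7B*, with 9 copies and the highest fold enrichment of the list (12.2).

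Several of the 20 lay beside centromeres. On chromosome 1, 5 of the 20 were found, nearest to *SRGAP2C* and, for 4 of them, *H3-7*, with −log10 q values from 65.0 to 82.99 and 3 to 80 copies. Chromosome 10 had 3, of which the 2 nearest to *ZNF37A* had single-copy central bases (fold enrichment 9.05 and 6.32) and the one nearest to *ZNF33B* had 49 copies. Chromosome 3 had 2, nearest to *EPHA3* at more than 1.4 Mb, with 57 and 331 copies. The others were nearest to *ATP6V0D2* and *CA2* on chromosome 8, *TPTE* on chromosome 21 (1 copy, −log10 q 68.8), *KCNJ18* on chromosome 17, and an unnamed gene model on chromosome 16. The single-copy peaks near *ZNF37A* and *TPTE* had no palindrome, so a strong and unique summit did not always hold it. For all of these the nearest gene only gives the location. Whether extra copies in the KOPT-K1 genome or the placing of reads from several copies raised these peaks was not tested.

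Repeats were more frequent at summits than beside them over the whole list. The central 31 bases occurred more than 10 times in 16.3% (14.9% to 17.9%) of summits and in 8.84% (8.05% to 9.68%) of the flanks. Among weak peaks these shares were 15.5% and 8.11%, so the difference was not limited to the strongest peaks. The other lists had 10.0% to 11.8% of such summits. The median GC content was 39.6% at the summits and 36.6% in the flanks.

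The fixed gene lists had few members with a summit. They were counted by summit only, so a gene inside a long interval with its summit elsewhere was not counted. Over all genes, counting any base of the interval gave 782 promoter genes in place of 95. Of 20 autosomal STAT5 target genes, which include *CISH*, *SOCS1*, *PIM1*, and *BCL2*, 0 had a summit in the promoter or body, where 1.75% of all genes did. Only 3 of the 20 lay between the first and the last summit of a chromosome with more than 3 peaks, against 24.3% of all genes, while 8 were on chromosomes with 3 or fewer peaks, against 10552 of 19111 for all genes. At the share of all genes fewer than 1 of the 20 would be expected, so the count of 0 says little about these genes.

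Among 29 cytokine receptor and JAK-STAT genes, 2 had a summit in the promoter or body (6.90%, against 1.75% of all genes), both weak. The summit in intron 4 of *STAT4*, a transcription factor activated by IL-12 (chr2:191073639, fold enrichment 2.30, −log10 q 3.11), had 35 copies of its central bases and no palindrome. It was on chromosome 2, where 14.03% of all genes had a summit, and 2 genes are too few to tell the list from the rest. None of these 29 genes had a promoter summit of its own.

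Of 75 T cell receptor pathway genes, 2 had a summit (2.67%), close to the 1.75% of all genes. These were *CD8A*, described above, and *PDK1*, the gene of pyruvate dehydrogenase kinase 1, with a summit in intron 8 (fold enrichment 2.62, −log10 q 4.56) and one in exon 11 (2.08, −log10 q 2.15), both without the palindrome. The *PDK1* symbol is in the list, but the kinase called PDK1 in T cell receptor signaling is encoded by *PDPK1*. On chromosome 2, where 12 of the 75 genes lie, 2 of 12 compared with 14.03% of all genes. Within 100 kb of a summit were 8 of the 75 genes, against 765 of 19111 for all genes, and they were, besides these 2, *CD8B*, *CD28*, *ICOS*, *CTLA4*, *FOSL2*, and *THEMIS*. All of them but *THEMIS* were on chromosome 2, which held 12 of the 75 genes and 1247 of the 19111. The counts within 100 kb were not compared by chromosome, so they cannot be told apart from the place of the genes on chromosome 2. *CD28*, the costimulatory receptor, had a weak summit 645 bp beyond its 3′ end (1.88, −log10 q 1.58), and a weak summit 19583 bp from *ICOS* was 43215 bp from *CTLA4* (2.00, −log10 q 1.85). The summits nearest to *FOSL2* (45591 bp) and *THEMIS* (92744 bp) were weak as well. These 6 genes were named after their values were seen. *CD8A* was thus the only gene of this pathway with a strong KOPT-K1 summit in its promoter or body. Strong intervals with their summit elsewhere also reached genes of the list. One was *ZAP70*, also named after its values were seen, at 156105 bp from a strong summit in *TMEM131* (−log10 q 7.94, interval of 1176248 bp).

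Of 57 T-ALL driver genes, 0 had a summit in the promoter or body, where 1.75% of all genes did, so that about 1 would be expected. Within 100 kb were *ZEB2*, *MYCN*, and *DNMT3A*, named after their values were seen. The summit 25833 bp beyond *ZEB2*, the gene of a zinc finger repressor, was the strongest of these (fold enrichment 2.85, −log10 q 5.89), had no palindrome, and was closer to a start site of *GTDC1* (5963 bp). Those near *MYCN* (53613 bp) and *DNMT3A* (93627 bp) had fold enrichments of 1.89 and 1.90, the latter with 68 copies. Over all 19111 genes, 765 had a summit within 100 kb, so that 3 of 57 was near what all genes showed.

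Overlap with the other lists came from chromosome 2. An interval of at least 1 other list overlapped 892 of the KOPT-K1 peaks by 1 bp or more (37.1%, 35.2% to 39.1%). It was 845 of 848 on chromosome 2, 0 of 492 on chromosome 6, 0 of 863 on chromosome 8, and 23.3% on the other autosomes. On chromosome 2 the intervals of each other list covered 76.9% to 82.8% of the sequenced bases, and overlap there says little about shared positions.

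Counted from either side, overlap was unequal. DND-41 intervals overlapped 33.4% of the KOPT-K1 peaks, and KOPT-K1 intervals overlapped 10.2% of the DND-41 peaks. For SUP-T13 the shares were 36.2% and 2.87%, for HSB-2 33.4% and 4.28%, for LOUCY 35.8% and 3.51%, and for JURKAT 34.9% and 2.17%. Summits were shared far less often. DND-41 had a summit within 500 bp of 25 KOPT-K1 summits (1.04% of these and 0.420% of its own), of which 11 were among the 111 strong peaks. HSB-2 had 12, JURKAT 11, SUP-T13 10, and LOUCY 5, with 9, 3, 4, and 2 among the strong peaks. The KOPT-K1 list thus shared stretches of chromosome 2 with every line, and few exact positions with any.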

How the data were processed

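ChIP-Seq for STAT5B was analysed in KOPT-K1, with 5 other T-ALL lines as reference, and with 1 ChIP and 1 input library per line there were no replicates. The authors aligned reads with BWA 0.7.15-r1140 to GRCh38 after PRINSEQ-lite filtering, used SAMtools 1.4, and ran MACS2 for each line with its own input as control, as the study's methods and the submitters' processing notes state. The deposited score column was not used. The authors' fold values are ratios of ChIP over input background at the summit, and their p and q are deposited as −log10. Read depth was not used here.

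From these lists, summits (start plus offset) were assigned with GENCODE 44 to promoters (within 2000 bp of any start site of a protein-coding gene), then exons of canonical transcripts, gene bodies, or distal positions. Windows of 101 bases were searched in GRCh38, and copies of the central 31 bases were counted on both strands. Windows holding an unsequenced base were left out. Strong means a −log10 q of at least 5. Named genes were those of the 20 strongest peaks, of the 15 strongest promoter summits, of promoter summits with the palindrome, of the 4 gene lists, and those with 8 or more summits. One site that this rule names is not reported here. Members and lists were chosen with earlier results of these data known. Alternatives varied the threshold, interval length, chromosomes, promoter window, start sites, annotation, position, motif, and overlap. The splits by copies and by interval length, the other motifs, and the site comparison between lines were chosen after seeing the data. Scripts were tested on simulated data. Python 3.11.15, NumPy 2.4.6, SciPy 1.17.1, samtools 1.23.1, and matplotlib 3.10.9 were used.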

Additional observations from a re-analysis of the deposited data

Results flagged for a closer look

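Among the 4 lines with high pY-STAT5, KOPT-K1 lay far from the other 3 lines in 4 of 15 measures of the autosomal lists. Chromosomes 1 and 2 held 36.5% of its peaks, against 98.6% to 99.2% in the other 3. Chromosome 6 held 20.5% and chromosome 8 held 35.9%, against 1 peak at most in each of the other 3. Summits whose central 31 bases occur more than 10 times in the genome made up 16.3%, against 10.0% to 10.5%. The first 3 of these measures are parts of 1 pattern, since a share gained by chromosomes 6 and 8 is lost by the rest. They were also chosen with the many KOPT-K1 peaks on chromosomes 6 and 8 already known, so their standing out was expected and does not count against chance. The share of repeated summits rests on the split by copies, which was also chosen after seeing the data, so it cannot be judged against chance either. For a measure chosen beforehand, chance alone sets 1 line apart in about 1 in 20 such comparisons.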

How the results depend on the processing

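The count of autosomal peaks and all shares depended on which peaks entered. With a −log10 q of at least 5, there were 111 peaks, 57.7% on chromosomes 1 and 2, 13 promoter genes, 10.8% of summits at promoters, 26.1% in gene bodies, 29.7% with the palindrome, and 65.8% overlapping another list. With intervals no longer than 5 kb, these were 903 peaks, 28.1% on chromosomes 1 and 2, 33 promoter genes, 3.65% at promoters, and 29.7% overlapping another list. Without chromosomes 6 and 8, they were 1050 peaks, 83.5%, 7.24% at promoters, 42.2% in gene bodies, 50.6% distal, 5.90% with the palindrome, and 84.95% overlapping.

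The promoter gene count of 95 was 58 with a 1000 bp window, 158 with 5000 bp, 42 with canonical start sites, and 782 with any base of the interval. With all GENCODE genes, 8.73% of summits were at promoters, 52.7% in gene bodies, and 38.5% distal. The palindrome share was 2.20% within 25 bp, 7.94% within 100 bp, 2.29% for the 4 spelled forms, and 2.08% with 4 bases in the middle. Overlap was 3.70% when 50% of both intervals had to be shared and 2.20% for summits within 500 bp. Chosen after seeing the data, strong single-copy summits gave a palindrome share of 47.1%, and intervals over 100 kb gave 17.2%.

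Of 72 alternative values, 13 stayed close to the reported value (a share inside its 95% interval, a count within 1.5 times), among them the distal share at the stricter threshold and the palindrome share in single-copy summits. The 25 values for overlap with a single list moved in the same ways. What made the values differ was not tested.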
